A study of Homo sapiens with 6 samples.

Results

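Cholesterol and fatty acid synthesis was followed through 44 genes chosen by name, from the enzymes of the mevalonate and sterol pathways to the sterol regulatory element binding proteins (SREBPs), the enzymes that build and desaturate fatty acids, and those that load them onto coenzyme A and glycerol. All 44 were found among the 58219 gene identifiers of the data, and 43 had enough counts to be tested. The 6 stranded polyA libraries were made from SNU-449, an established line of human liver cancer cells. In 3 of them the cells stably expressed the kinase Yes with the gatekeeper change T348I (Yes T348I), and in the other 3 they stably expressed wild-type Yes (Yes WT). Every culture, Yes WT included, was given the kinase inhibitor dasatinib at 100 nM, so the comparison asks how the genes differ between the lines in the presence of the drug. Yes is a SRC family tyrosine kinase, dasatinib inhibits SRC family and ABL kinases, and the gatekeeper residue lines the drug pocket. The labels do not say whether a line was a clone or a pool, nor whether the 3 libraries of a group were separate cultures, so the p-values cover only the spread between these libraries.

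Cells make cholesterol and fatty acids from acetyl-CoA. SREBP-1, encoded by SREBF1, is known mainly for driving fatty acid synthesis and desaturation, and SREBP-2, encoded by SREBF2, for driving sterol synthesis. Both are made as precursors in the endoplasmic reticulum, where SCAP escorts them to the Golgi for cleavage when sterol is low and INSIG proteins hold SCAP back when sterol is high. The genes of this pathway are highly active in liver and are often raised in liver cancer.

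Values are CPM, read counts divided by the scaled library total (TMM), which compare libraries for the same gene. Levels between genes are given as TPM, which also divide by exon length. Gene counts totalled 14392286 to 19608763 in Yes T348I and 14360137 to 16117573 in Yes WT. YES1, whose count can hold reads of the native and of the introduced gene, was at 409 ± 26.2 CPM in Yes T348I and 364 ± 6.17 CPM in Yes WT (SD, n = 3 each). Correlation of log2 CPM across genes was 0.995 to 0.996 within groups and 0.982 to 0.985 between them. Raw counts of libraries of the same group were also compared by chi-square per degree of freedom. It was 4.74 between Yes T348I replicates 1 and 2, and 1.44 to 2.18 between the other pairs. The cells held little of the usual hepatocyte programme, since 8 of 12 hepatocyte markers stayed under 1 CPM in every library, among them ALB and HNF4A, while FGB was at 51.4 to 53.6 CPM in Yes T348I and 58.2 to 63.6 CPM in Yes WT. Of the markers for other cell types, 7 of 8 for leukocytes, 7 of 7 for endothelium, 5 of 7 for adipocytes, 4 of 8 for stellate cells and fibroblasts, 2 of 6 for cholangiocytes and 0 of 7 for mesenchymal cells stayed under 1 CPM in every library. Summed TPM of the leukocyte list was 1.175 to 2.503 in Yes T348I and 4.02 to 5.35 in Yes WT, of which CD14, its 1 tested gene, made up 1.28 TPM in Yes T348I and 4.20 TPM in Yes WT on average, and CD3E and CD163 were at 0 in every library. The stellate list summed to 118 to 129 TPM in Yes T348I and 106 to 119.5 TPM in Yes WT, with RGS5 and COL1A1 higher and ACTA2 lower. The cholangiocyte list summed to 1355 to 1511 TPM in Yes T348I and 1829 to 1956 TPM in Yes WT, but its genes went both ways, with SPP1 lower, at 810 TPM in Yes T348I and 1555 TPM in Yes WT, and KRT7 and SOX9 higher. The mesenchymal list summed to 4378 to 4899 TPM in Yes T348I and 4087 to 4279 TPM in Yes WT, with 5 genes higher and 2 lower. The part of these differences in the results was not tested, and in bulk RNA fewer cells of a type and less RNA per cell cannot be told apart.

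Promoter sequence was looked up for SREBP-type elements, because SREBPs bind such elements together with the factor NF-Y, which binds CCAAT. RefSeq windows (GRCh38.p14) from 250 bases before to 50 after each start were found for 38 of the 44 genes, with 56 windows in all. FASN, SQLE, FDFT1, ACAT2, DGAT1 and DGAT2 had no window. Only exact matches were sought, so elements that depart from the consensus or lie outside the windows would be missed. The sterol regulatory element consensus TCACNCCAC, sought on both strands, was in 2 of the 56 windows, those of SREBF2 and of an ACSL1 start, or 3.57%, against 1.13% of 35116 windows of all genes. The CCAAT letters, also sought on both strands, were in 57.1% of the 56 windows, against 34.6% of all. The 4 sequences below show the SREBF2 element and, for SCD, STARD4 and INSIG1, the CCAAT positions. Matches are in capitals, and ATTGG is CCAAT on the opposite strand. These 3 genes fell, but CCAAT was also in windows of genes that rose, such as EBP and ELOVL5. Genes that did not pass, such as MVK and NSDHL, held it too. The SREBF2 stretch is chr22:41832962-41832990 (plus strand, with the match 133 bases before the start), that of SCD chr10:100346984-100347071 (plus strand), that of STARD4 chr5:111512641-111512716 (minus strand) and that of INSIG1 chr7:155297688-155297732 (plus strand). A match describes these letters and shows no binding.
SREBF2: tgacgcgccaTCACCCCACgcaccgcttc
SCD: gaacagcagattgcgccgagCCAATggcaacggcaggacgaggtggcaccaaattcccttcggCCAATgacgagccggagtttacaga
STARD4: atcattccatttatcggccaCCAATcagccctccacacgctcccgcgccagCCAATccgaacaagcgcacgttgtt
INSIG1: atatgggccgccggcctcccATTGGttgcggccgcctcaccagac

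Of the members, those of fatty acid desaturation and activation were mostly lower in Yes T348I, and those of sterol synthesis mostly did not pass. Among the 43 members with a test, 19 fell in Yes T348I, or 44.2%, and 7 rose, or 16.3%. The threshold was an adjusted p of 0.05 from edgeR's quasi-likelihood test, with the Benjamini-Hochberg adjustment over all 14723 genes tested. The background over all genes tested was 28.0% with a rise and 27.3% with a fall. The desaturase genes SCD, FADS1 and FADS2, the acyl-CoA synthetases ACSL4 and ACSL1, ACSS2 and the transcription factor gene SREBF1 were lower. The 18 sterol synthesis genes showed 3 rises (16.7%), 4 falls (22.2%) and 11 that did not pass. The median log2 fold change was -0.036 in those 18 genes, -0.16 in the 18 tested genes of fatty acid synthesis, elongation, desaturation and glycerolipid assembly, and -0.013 over all genes tested.

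Most changes were small. A fall of at least 1.5-fold was found for 4 of the 43, TM7SF2, SREBF1, ACSL4 and FADS2, which is 9.30% beside 9.19% of all genes tested. No member rose by 1.5-fold, beside 3.55% of all genes. The 3 values of Yes T348I did not overlap those of Yes WT for 27 of the 43, or 62.8%, beside 59.5% of all genes tested. The shares with a fall of at least 1.5-fold and with no overlap were near the background, while the share lower was above it and the share higher below it. The median absolute log2 fold change was 0.13 in the members and 0.23 over all genes tested. These differences in direction and size were not tested.

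**Figure D1:**
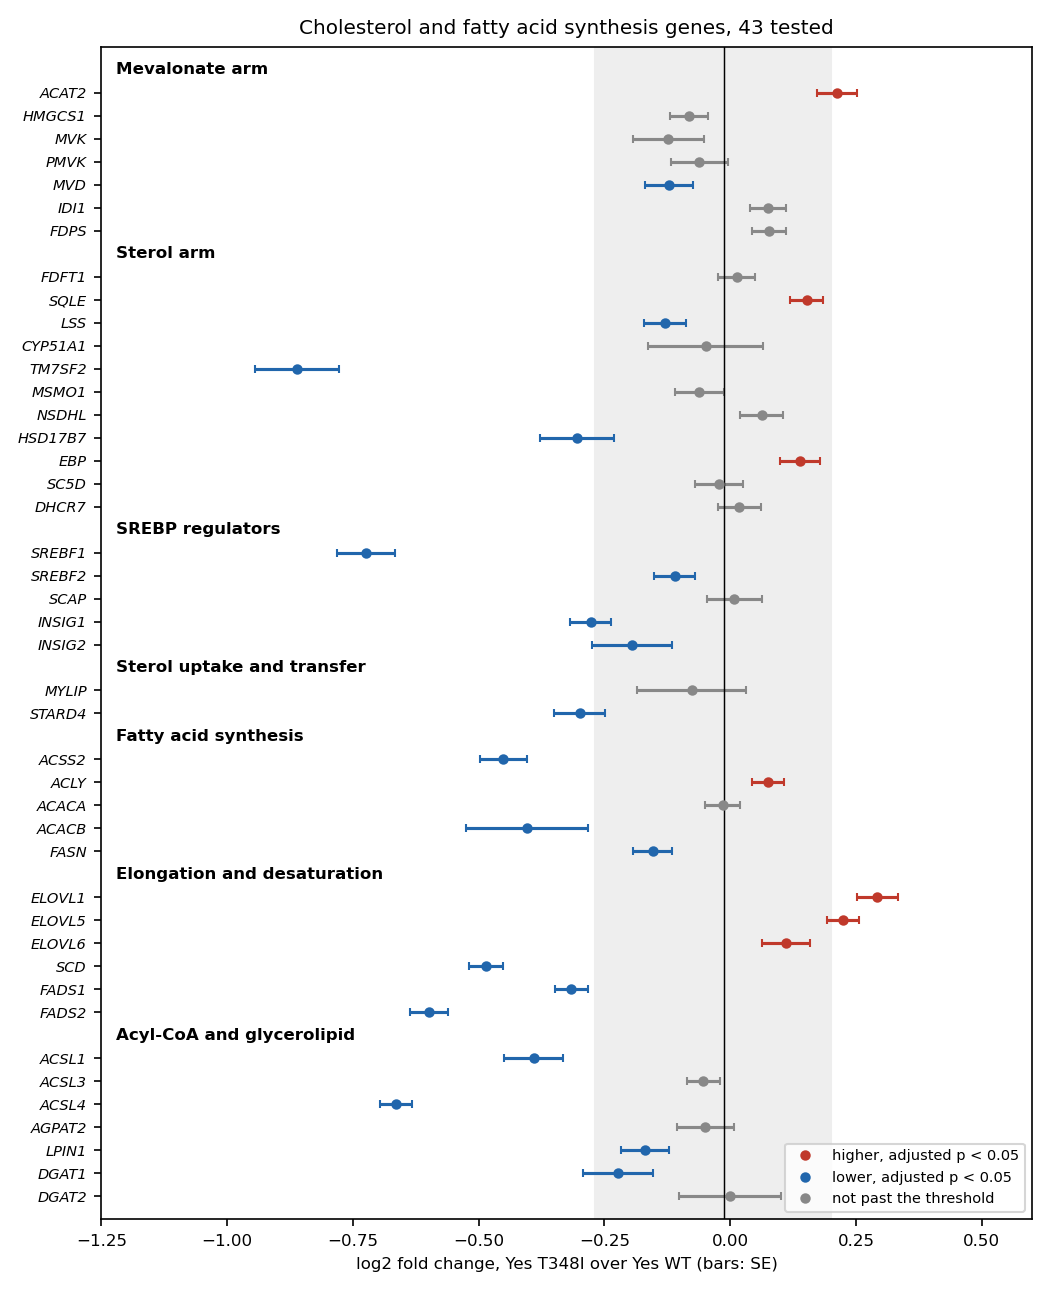
Log2 fold change of Yes T348I over Yes WT (x axis, bars are SE) for the 43 tested genes, grouped by role; the grey band spans the middle of all tested genes, from -0.27 to 0.20, and the line is their median of -0.013. TM7SF2 stands at the left among the sterol genes, and SREBF1, the desaturase genes and ACSL4 lie left of the band.

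The SREBP genes themselves changed unequally. SREBF1 (ENSG00000072310.16, chromosome 17, 17810399 to 17837002 on GRCh38) was at 65.6, 50.9 and 54.0 CPM in Yes T348I, against 98.4, 87.1 and 98.2 CPM in Yes WT. Every Yes T348I library lay below every Yes WT library, and SREBF1 fell to 0.606 of its Yes WT level (log2 fold change -0.72, SE 0.06, adjusted p = 3.24e-14). The gene gives the isoforms SREBP-1a and SREBP-1c from separate starts, which gene counts do not tell apart.

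SREBF2 (ENSG00000198911.11, chromosome 22, 41833079 to 41907308) was at 109, 99.3 and 109.7 CPM in Yes T348I, against 112, 113 and 118 CPM in Yes WT. The groups did not overlap, but the gap was narrow, and the fall was log2 fold change -0.11, SE 0.04, adjusted p = 0.021. The call of SREBF2 was lost without Yes WT replicate 3 or Yes T348I replicate 2, with an adjusted p of 0.012 to 0.18 when 1 library was left out and of 0.0017 to 0.18 over all alternatives. The ratio of SREBF1 to SREBF2 in CPM was 0.602, 0.512 and 0.492 in Yes T348I, against 0.877, 0.771 and 0.829 in Yes WT. This ratio was chosen with the values known, and its exact two-sided permutation test gave p = 0.10, the smallest that 3 against 3 allows.

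INSIG1, which retains SCAP in the endoplasmic reticulum and is itself an SREBP target, was at 78.3, 79.4 and 75.6 CPM in Yes T348I, against 96.0, 93.4 and 93.5 CPM in Yes WT. The Yes T348I libraries were all lower, and INSIG1 fell to 0.825 of Yes WT (log2 fold change -0.28, SE 0.04, adjusted p = 2.43e-07). INSIG2, a second retention factor, was at 14.5, 14.3 and 14.1 CPM in Yes T348I, against 16.6, 15.8 and 16.7 CPM in Yes WT. Its fall passed the threshold by little (log2 fold change -0.20, SE 0.08, adjusted p = 0.036) and was lost when any library but Yes WT replicate 2 was left out, with an adjusted p of 0.040 to 0.10 over the left-out libraries and 0.011 to 0.15 over all alternatives. SCAP, the escort, did not pass: it was at 47.4, 41.7 and 48.1 CPM in Yes T348I, against 45.7, 46.9 and 44.1 CPM in Yes WT (log2 fold change 0.0086, SE 0.05, adjusted p = 0.91), and the groups overlapped.

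The mevalonate arm moved little. Of its 7 enzymes 1 rose (14.3%), 1 fell (14.3%) and 5 did not pass, beside 28.0% higher and 27.3% lower of all genes tested. The log2 fold changes of the 7 were -0.12 to 0.21. ACAT2, the thiolase that joins acetyl-CoA units, was at 120.4, 116 and 115 CPM in Yes T348I, against 106, 98.8 and 99.6 CPM in Yes WT. The Yes T348I values all lay above those of Yes WT, and ACAT2 rose by 1.16-fold (log2 fold change 0.21, SE 0.04, adjusted p = 1.39e-05). MVD, the decarboxylase of mevalonate diphosphate, was at 58.4, 54.5 and 54.7 CPM in Yes T348I, against 62.0, 58.1 and 62.7 CPM in Yes WT, with overlapping groups. It fell by little (log2 fold change -0.12, SE 0.05, adjusted p = 0.029), and the call was lost without Yes WT replicate 1 or 3, or Yes T348I replicate 2 or 3 (adjusted p 0.011 to 0.13 with 1 library left out, 0.0039 to 0.18 over all alternatives).

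HMGCS1, the synthase that makes HMG-CoA, was at 119, 120.5 and 116 CPM in Yes T348I, against 122, 126 and 128 CPM in Yes WT (log2 fold change -0.082, SE 0.04, adjusted p = 0.061). IDI1, the isopentenyl diphosphate isomerase, was at 259, 261 and 269 CPM in Yes T348I, against 243, 265 and 241 CPM in Yes WT (log2 fold change 0.075, SE 0.04, adjusted p = 0.07). FDPS, which makes farnesyl diphosphate, was at 206, 202 and 210.3 CPM in Yes T348I, against 198, 198 and 189.7 CPM in Yes WT (log2 fold change 0.077, SE 0.03, adjusted p = 0.053). The groups overlapped for IDI1 and not for HMGCS1 and FDPS. These 3 lay just short of the threshold and passed it when certain libraries were left out: HMGCS1 on the lower side without Yes WT replicate 1 (adjusted p = 0.047, 0.0049 to 0.40 over all alternatives), IDI1 on the higher side without Yes WT replicate 2 or Yes T348I replicate 1 or 2 (0.0074 to 0.43), and FDPS on the higher side without Yes T348I replicate 1 or 2 (0.022 to 0.76). GENCODE release 29 names 8 pseudogenes of FDPS, each at no more than 0.125 CPM on average here. The kinases MVK and PMVK were at 20.5 and 35.0 CPM in Yes T348I, and 22.4 and 36.5 CPM in Yes WT, with log2 fold changes of -0.12 (SE 0.07) and -0.062 (SE 0.06) that did not pass.

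In the sterol arm, from squalene to cholesterol, 2 of 11 enzymes rose (18.2%), 3 fell (27.3%) and 6 did not pass. Over all genes tested 28.0% rose and 27.3% fell, so the share lower was at the background. TM7SF2 (ENSG00000149809.14, chromosome 11, 65111845 to 65116384), a sterol reductase that acts after lanosterol demethylase, was at 12.1, 12.8 and 13.5 CPM in Yes T348I, against 20.4, 25.3 and 24.0 CPM in Yes WT. It had the largest change of all 43 members, with no overlap, and fell to 0.550 of Yes WT (log2 fold change -0.86, SE 0.08, adjusted p = 8.59e-12). Its exons share 0.469% of their length with VPS51 on the same strand. HSD17B7, the sterol ketoreductase, was at 17.5, 16.1 and 17.9 CPM in Yes T348I, against 20.8, 21.2 and 21.7 CPM in Yes WT, and fell with no overlap (log2 fold change -0.30, SE 0.07, adjusted p = 4.87e-04). A transcribed copy, HSD17B7P2, was also lower, at 3.49 CPM in Yes T348I and 4.65 CPM in Yes WT, and reads shared by both would not have been counted.

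SQLE, the squalene epoxidase and a rate-limiting enzyme of the arm, was at 228, 230.2 and 233 CPM in Yes T348I, against 207, 209 and 206 CPM in Yes WT. All Yes T348I libraries were higher, and SQLE rose by 1.11-fold (log2 fold change 0.15, SE 0.03, adjusted p = 1.25e-04). EBP, the sterol isomerase, was at 121, 118 and 117 CPM in Yes T348I, against 114, 105 and 104 CPM in Yes WT, also without overlap, and rose by 1.10-fold (log2 fold change 0.14, SE 0.04, adjusted p = 0.0029). LSS, the cyclase that forms lanosterol, was at 124, 109.9 and 114 CPM in Yes T348I, against 129, 121 and 132 CPM in Yes WT, with overlapping groups, and fell (log2 fold change -0.13, SE 0.04, adjusted p = 0.0079). Without Yes WT replicate 3 or Yes T348I replicate 2 the fall of LSS no longer passed (adjusted p 2.60e-04 to 0.078 with 1 library left out, which is also the range over all alternatives).

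The other sterol enzymes had small differences that did not pass. NSDHL, a dehydrogenase of sterol demethylation, was at 75.2, 73.0 and 75.3 CPM in Yes T348I, against 72.4, 70.5 and 71.1 CPM in Yes WT (log2 fold change 0.063, SE 0.04, adjusted p = 0.22). MSMO1, the methylsterol oxidase, was at 48.6, 48.5 and 48.6 CPM in Yes T348I, against 51.4, 50.8 and 49.9 CPM in Yes WT (log2 fold change -0.062, SE 0.05, adjusted p = 0.29). In both genes the groups did not overlap, though the differences did not pass the test. SC5D, the lathosterol oxidase, was at 57.0, 61.4 and 56.8 CPM in Yes T348I, against 58.4, 60.5 and 59.0 CPM in Yes WT, with overlapping groups (log2 fold change -0.022, SE 0.05, adjusted p = 0.71). FDFT1, the squalene synthase, and DHCR7, the last reductase, had log2 fold changes of 0.013 (SE 0.04) and 0.018 (SE 0.04). CYP51A1, the lanosterol demethylase, was at 7.69 ± 0.972 CPM in Yes T348I and 8.05 ± 0.618 CPM in Yes WT (SD, n = 3 each; log2 fold change -0.049, SE 0.11, adjusted p = 0.74). GENCODE release 29 places other genes on the same strand over its exons, with overlaps that, added gene by gene, come to 82.1% of its exon length. Those genes were not found among the gene identifiers of the data. Whether reads of CYP51A1 were dropped as ambiguous is therefore not known, and its level is uncertain.

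Among the pair of genes for sterol uptake and transfer, STARD4, a soluble carrier that moves cholesterol between membranes and whose promoter holds the pair of CCAAT matches shown above, was at 48.1, 46.0 and 51.6 CPM in Yes T348I, against 59.3, 57.8 and 62.0 CPM in Yes WT. The Yes T348I libraries were all lower, and STARD4 fell to 0.813 of Yes WT (log2 fold change -0.30, SE 0.05, adjusted p = 2.45e-06). MYLIP, a ubiquitin ligase that marks lipoprotein receptors for degradation and is induced by the sterol-sensing nuclear receptor LXR, was at 9.13, 8.02 and 9.31 CPM in Yes T348I, against 10.1, 7.89 and 9.90 CPM in Yes WT. The groups overlapped, and MYLIP did not pass (log2 fold change -0.077, SE 0.11, adjusted p = 0.57).

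**Figure D2:**
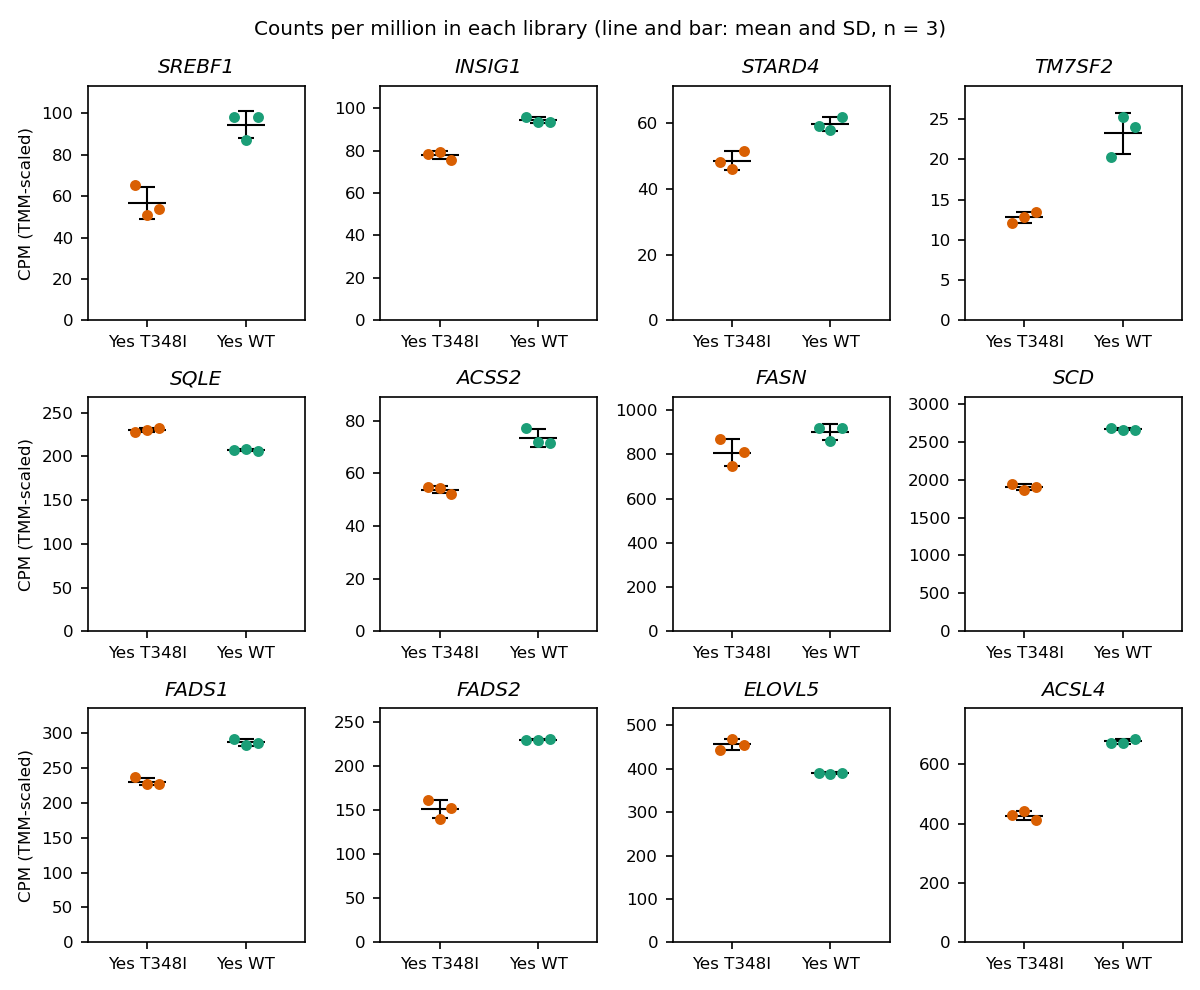
CPM of 12 members in each library (y axes start at 0), with Yes T348I left of Yes WT; points are libraries, and the line and bar are the mean and SD (n = 3). SREBF1 and TM7SF2 show the widest relative gaps, SQLE and ELOVL5 are the panels in which Yes T348I is higher, and FASN is the panel in which the groups overlap.

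Fatty acid synthesis from acetyl-CoA gave 1 rise (20%), 3 falls (60%) and 1 gene that did not pass. Over all genes tested 28.0% rose and 27.3% fell. ACSS2, which makes acetyl-CoA from acetate, was at 54.7, 54.5 and 52.2 CPM in Yes T348I, against 77.4, 71.7 and 71.4 CPM in Yes WT. The groups were well apart, and ACSS2 fell to 0.732 of Yes WT (log2 fold change -0.45, SE 0.05, adjusted p = 5.83e-11). FASN, the fatty acid synthase, was at 869, 746 and 809.6 CPM in Yes T348I, against 920.5, 859 and 919 CPM in Yes WT. Yes T348I replicate 1 lay within the Yes WT range, and FASN fell by little (log2 fold change -0.15, SE 0.04, adjusted p = 7.47e-04). With DESeq2 the fall of FASN did not pass (adjusted p = 0.057, against 9.05e-07 to 0.057 over all alternatives).

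ACLY, which makes cytosolic acetyl-CoA from citrate, was at 566, 535 and 547 CPM in Yes T348I, against 515, 524 and 526 CPM in Yes WT. It rose without overlap but by little (log2 fold change 0.076, SE 0.03, adjusted p = 0.041), and the call was lost when any library but Yes T348I replicate 2 was left out (adjusted p 0.0071 to 0.14 with 1 library left out, up to 0.35 over all alternatives). ACACA, the cytosolic acetyl-CoA carboxylase and the committed step, was at 173, 179 and 177 CPM in Yes T348I, against 184, 173 and 176 CPM in Yes WT. The groups overlapped, and ACACA did not pass (log2 fold change -0.015, SE 0.04, adjusted p = 0.74). ACACB, the mitochondrial form that restrains fatty acid oxidation, was at 6.10, 4.94 and 5.71 CPM in Yes T348I, against 7.39, 7.34 and 7.62 CPM in Yes WT, and fell with no overlap (log2 fold change -0.40, SE 0.12, adjusted p = 0.0045).

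Of the 6 members for elongation and desaturation, 50% were called higher and 50% lower, beside 28.0% and 27.3% of all genes tested. The elongase genes ELOVL1, ELOVL5 and ELOVL6 were higher and the desaturase genes SCD, FADS1 and FADS2 lower. This split did not extend to all relatives of these genes outside the 44, which are given after them. SCD (ENSG00000099194.5, chromosome 10, 100347124 to 100364834), the desaturase that makes oleic acid from stearic acid, was at 1948, 1868 and 1896 CPM in Yes T348I, against 2685, 2658 and 2653 CPM in Yes WT. The 3 Yes T348I libraries all lay well below, and SCD fell to 0.714 of Yes WT (log2 fold change -0.49, SE 0.03, adjusted p = 3.50e-16). It held the highest level of the members per length, 1186 ± 61.8 TPM in Yes T348I and 1621 ± 40.3 TPM in Yes WT (SD, n = 3 each). SCDP1, its pseudogene, was at 1.45 CPM in Yes T348I and 1.94 CPM in Yes WT, far below SCD.

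FADS2 and FADS1, the desaturases of polyunsaturated fatty acid synthesis, lie next to each other on chromosome 11 with gene bodies that overlap on opposite strands (FADS2, ENSG00000134824.13, chromosome 11, 61792980 to 61867354, plus strand; FADS1, ENSG00000149485.18, chromosome 11, 61799625 to 61829318, minus strand). FADS2 was at 162, 141 and 153 CPM in Yes T348I, against 229.8, 229.7 and 232 CPM in Yes WT, and fell to 0.660 of Yes WT (log2 fold change -0.60, SE 0.04, adjusted p = 3.29e-17). FADS1 was at 236, 227 and 227 CPM in Yes T348I, against 292, 282 and 285 CPM in Yes WT, and fell to 0.803 (log2 fold change -0.32, SE 0.03, adjusted p = 6.30e-11). Neither gene had overlapping groups, and both falls also passed when reads of both strands were counted together.

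ELOVL5, which elongates polyunsaturated fatty acids, was at 444, 469.8 and 455 CPM in Yes T348I, against 391.6, 388 and 391 CPM in Yes WT. Here the Yes T348I libraries were all higher, and ELOVL5 rose by 1.17-fold (log2 fold change 0.22, SE 0.03, adjusted p = 9.60e-08). ELOVL1, which makes very long saturated chains, was at 109, 101 and 111 CPM in Yes T348I, against 86.5, 89.7 and 86.3 CPM in Yes WT, and rose by 1.23-fold (log2 fold change 0.29, SE 0.04, adjusted p = 8.94e-08), the largest rise of the members. ELOVL6, which elongates palmitate, was at 73.6, 82.8 and 74.5 CPM in Yes T348I, against 70.5, 75.3 and 67.7 CPM in Yes WT, with overlapping groups. Its rise (log2 fold change 0.11, SE 0.05, adjusted p = 0.047) was lost without Yes WT replicate 1 or 3 or Yes T348I replicate 2 (adjusted p 0.0068 to 0.30, also over all alternatives).

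The neighbouring lists hold 3 relatives of these enzymes, described here with their values known. SCD5, a second stearoyl-CoA desaturase, was at 58.9, 57.5 and 57.7 CPM in Yes T348I, against 50.5, 52.0 and 55.2 CPM in Yes WT, and rose with no overlap (log2 fold change 0.14, SE 0.05, adjusted p = 0.011). ELOVL4, an elongase of very long chains, was at 3.74, 3.22 and 4.79 CPM in Yes T348I, against 5.74, 4.36 and 5.35 CPM in Yes WT, with overlapping groups, and fell (log2 fold change -0.41, SE 0.15, adjusted p = 0.023). Both thus went against the members of their kind, while ELOVL7, another elongase, rose like them, with 40.4 ± 1.52 CPM in Yes T348I and 30.7 ± 2.48 CPM in Yes WT (log2 fold change 0.40, SE 0.06, adjusted p = 3.03e-07). The rise of SCD5 was lost without Yes WT replicate 1, by upper quartile factors and by library size alone, with an adjusted p of 0.0056 to 0.085 over all alternatives. The fall of ELOVL4 was lost with DESeq2 and without Yes WT replicate 1 or 3 or Yes T348I replicate 1 or 2, with an adjusted p of 0.0057 to 0.13 over all alternatives.

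Genes for activation of fatty acids and assembly of glycerolipids gave 4 falls, no rise, 3 genes that did not pass and 1 too low to test. Of the 7 tested, 57.1% thus fell and 0% rose, beside 27.3% and 28.0% of all genes tested. ACSL4 (ENSG00000068366.19, chromosome X, 109624244 to 109733403), the acyl-CoA synthetase that prefers arachidonic acid and is known for its part in ferroptosis, was at 428, 441 and 411 CPM in Yes T348I, against 670.1, 673 and 686 CPM in Yes WT. It fell to 0.631 of Yes WT with no overlap (log2 fold change -0.66, SE 0.03, adjusted p = 5.67e-21), the lowest adjusted p of the members. ACSL1, a synthetase for long-chain fatty acids, was at 31.3, 28.2 and 30.9 CPM in Yes T348I, against 41.0, 38.8 and 39.0 CPM in Yes WT, and fell to 0.763 (log2 fold change -0.39, SE 0.06, adjusted p = 2.44e-07). ACSL3, the synthetase of lipid droplets, was at 299, 312 and 307 CPM in Yes T348I, against 308, 324 and 321 CPM in Yes WT. Its groups overlapped, and ACSL3 did not pass (log2 fold change -0.054, SE 0.03, adjusted p = 0.16), though it did with upper quartile factors or library size alone (adjusted p 0.012 to 0.59 over all alternatives).

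LPIN1, the phosphatidate phosphatase lipin, was at 58.2, 55.5 and 60.0 CPM in Yes T348I, against 65.6, 61.8 and 67.9 CPM in Yes WT, and fell with no overlap (log2 fold change -0.17, SE 0.05, adjusted p = 0.0026). DGAT1, which completes triacylglycerol, was at 21.0, 19.96 and 19.9 CPM in Yes T348I, against 22.6, 25.1 and 23.7 CPM in Yes WT, and fell likewise (log2 fold change -0.22, SE 0.07, adjusted p = 0.0063). DGAT2, which catalyses the same step, was at 11.3, 10.2 and 10.7 CPM in Yes T348I, against 12.1, 9.07 and 11.0 CPM in Yes WT, with overlapping groups (log2 fold change -0.00017, SE 0.10, adjusted p = 0.999). AGPAT2, an acyltransferase of phosphatidic acid synthesis, was at 49.99, 40.9 and 47.8 CPM in Yes T348I, against 46.7, 49.0 and 48.6 CPM in Yes WT, and did not pass (log2 fold change -0.049, SE 0.06, adjusted p = 0.48). GPAM, the mitochondrial acyltransferase for glycerol phosphate, reached no more than 0.208 CPM in any library and was not tested.

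Per exon length the 43 tested members spanned a wide range. In Yes T348I, SCD was followed by ELOVL5, at 399 ± 1.12 TPM in Yes T348I and 334 ± 9.10 TPM in Yes WT, and by ACLY, at 352 ± 20.9 TPM in Yes T348I and 326 ± 7.58 TPM in Yes WT. FASN, at 288 ± 30.9 TPM in Yes T348I and 313 ± 19.1 TPM in Yes WT, did not differ from ACLY beyond their spread in Yes WT. ACSL4 was above FASN in Yes WT and below it in Yes T348I, at 222 ± 7.36 TPM in Yes T348I and 344 ± 10.6 TPM in Yes WT. At the low end were DGAT2, at 4.54 ± 0.377 TPM in Yes T348I and 4.44 ± 0.717 TPM in Yes WT, and ACACB, at 1.29 ± 0.175 TPM in Yes T348I and 1.68 ± 0.0672 TPM in Yes WT (SD, n = 3 each, for all TPM values). Per length, SREBF2 stood above SREBF1 in both lines, at 46.9 ± 3.87 TPM in Yes T348I and 49.4 ± 2.28 TPM in Yes WT, against 23.7 ± 3.93 TPM in Yes T348I and 38.5 ± 3.45 TPM in Yes WT for SREBF1.

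**Figure D3:**
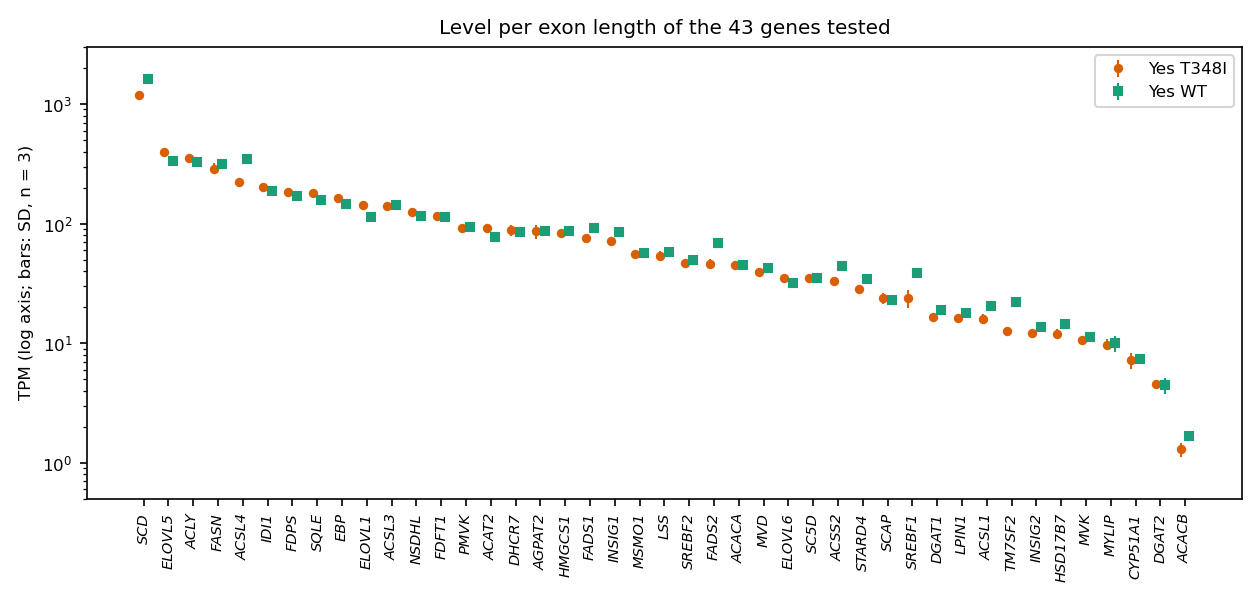
TPM (log axis; bars are SD, n = 3) of the 43 tested members, ordered by the mean in Yes T348I; circles are Yes T348I and squares Yes WT. Levels run from SCD at 1186 TPM in Yes T348I to ACACB at 1.29 TPM, and for most genes the symbols of both groups lie close together.

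Neighbouring lipid pathways were read from 8 further gene lists, which were not tested as sets. Over all genes tested, 28.0% rose and 27.3% fell, and the shares of each list are in brackets. Genes that use isoprenoids for prenylation, dolichol and ubiquinone gave 9 rises (52.9%) and 2 falls (11.8%) of 17 tested. Their median log2 fold change was 0.16. PDSS1, which makes the ubiquinone side chain, rose by 1.62-fold, with 23.6 ± 1.62 CPM in Yes T348I and 14.5 ± 1.42 CPM in Yes WT (log2 fold change 0.70, SE 0.08, adjusted p = 6.13e-10). ICMT and ZMPSTE24, which process prenylated proteins, also rose, with 0.38 (SE 0.04) and 0.30 (SE 0.04) on the log2 scale. The isoprenoid list had 6 rises by upper quartile factors, by library size alone and with DESeq2, and 7 to 9 rises and 1 fall when 1 library was removed.

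Genes for sterol storage and transport gave 4 rises (21.1%) and 11 falls (57.9%) of 19 tested. Their median log2 fold change was -0.19. LRP1, a large endocytic receptor for lipoprotein remnants, was at 21.8, 22.9 and 21.9 CPM in Yes T348I, against 48.2, 47.1 and 51.4 CPM in Yes WT, and fell to 0.453 of Yes WT (log2 fold change -1.14, SE 0.06, adjusted p = 3.70e-20). LIPA, the lysosomal lipase that frees cholesterol from its esters, and OSBPL9, an oxysterol binding protein relative, fell with log2 fold changes of -0.36 (SE 0.03) and -0.36 (SE 0.04). Of 11 tested genes for sterol efflux and LXR, 1 rose (9.09%) and 5 fell (45.5%), with a median of -0.062. NCEH1, a cholesteryl ester hydrolase, was at 282, 289 and 296 CPM in Yes T348I, against 167, 165 and 163 CPM in Yes WT, and rose by 1.75-fold (log2 fold change 0.81, SE 0.03, adjusted p = 2.70e-23). NR1H3 encodes LXR alpha, a known activator of SREBF1. It was at 6.05, 6.38 and 5.50 CPM in Yes T348I, against 8.74, 10.6 and 9.83 CPM in Yes WT. NR1H3 thus fell (log2 fold change -0.69, SE 0.11, adjusted p = 1.80e-06). NR1H2, which encodes LXR beta and is named with its values known, did not pass (log2 fold change -0.062, SE 0.05, adjusted p = 0.27). Per length it was at 55.9 TPM in Yes T348I and 57.1 TPM in Yes WT. NR1H3 was at 4.40 TPM in Yes T348I and 6.985 TPM in Yes WT. A part of either gene in the fall of SREBF1 was not tested. ABCG1, the sterol exporter, fell with 0.429 ± 0.266 CPM in Yes T348I and 2.69 ± 0.255 CPM in Yes WT (log2 fold change -2.54, SE 0.30, adjusted p = 1.76e-09), at levels that rest on 2 to 45 counts a library.

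Genes of SREBP processing and sterol-regulated degradation split into 5 rises (27.8%) and 6 falls (33.3%) of 18 tested, with a median of 0.020. Over all genes tested these shares were 28.0% and 27.3%. ERLIN1, a membrane protein of the endoplasmic reticulum that binds the SCAP and INSIG complex, was at 121, 130.4 and 123 CPM in Yes T348I, against 85.3, 87.3 and 86.9 CPM in Yes WT, and rose (log2 fold change 0.53, SE 0.04, adjusted p = 1.07e-14). UBE2G2, a ubiquitin-conjugating enzyme of that membrane, rose with a log2 fold change of 0.27 (SE 0.04), and SYVN1, a ubiquitin ligase there, fell with a log2 fold change of -0.40 (SE 0.05). Lipid droplet genes gave 3 rises (23.1%) and 5 falls (38.5%) of 13 tested, with a median of -0.12. PLIN2, the droplet coat protein, was at 223, 218 and 229 CPM in Yes T348I, against 349, 355 and 333 CPM in Yes WT, and fell to 0.647 of Yes WT (log2 fold change -0.63, SE 0.03, adjusted p = 1.22e-19). The monoglyceride lipase gene MGLL and AUP1 rose, with log2 fold changes at 0.43 (SE 0.03) and 0.25 (SE 0.04).

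Fatty acid oxidation gave 4 rises (17.4%) and 8 falls (34.8%) of 23 tested, with a median of -0.13. PPARA, the nuclear receptor that induces oxidation genes, was at 7.79, 7.68 and 7.26 CPM in Yes T348I, against 14.97, 10.9 and 15.2 CPM in Yes WT, and fell (log2 fold change -0.86, SE 0.11, adjusted p = 8.29e-09). CPT1A, the carnitine transferase of mitochondrial entry, also fell, with a log2 fold change of -0.31 (SE 0.04). The number of rises was 2 to 5 when 1 library was removed, and 2 without Yes WT replicate 1. Phospholipid and sphingolipid genes gave 10 rises (40%) and 5 falls (20%) of 25 tested, with a median of 0.020. PTDSS1, a phosphatidylserine synthase, was at 170.3, 172 and 166 CPM in Yes T348I, against 115, 120.0 and 117 CPM in Yes WT, and rose (log2 fold change 0.53, SE 0.04, adjusted p = 3.25e-16). DEGS1, the ceramide desaturase, and UGCG, the glucosylceramide synthase, rose, with log2 fold changes at 0.42 (SE 0.03) and 0.33 (SE 0.04). Genes of fatty acid uptake, further elongation and sensing gave 13 rises (38.2%) and 11 falls (32.4%) of 34 tested, with a median of 0.021. HACD1 and HACD2, dehydratases of the elongation cycle, rose, with log2 fold changes at 0.47 (SE 0.04) and 0.40 (SE 0.04), and LPIN3, a lipin relative, fell, with -0.55 (SE 0.06) on that scale.

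**Figure D4:**
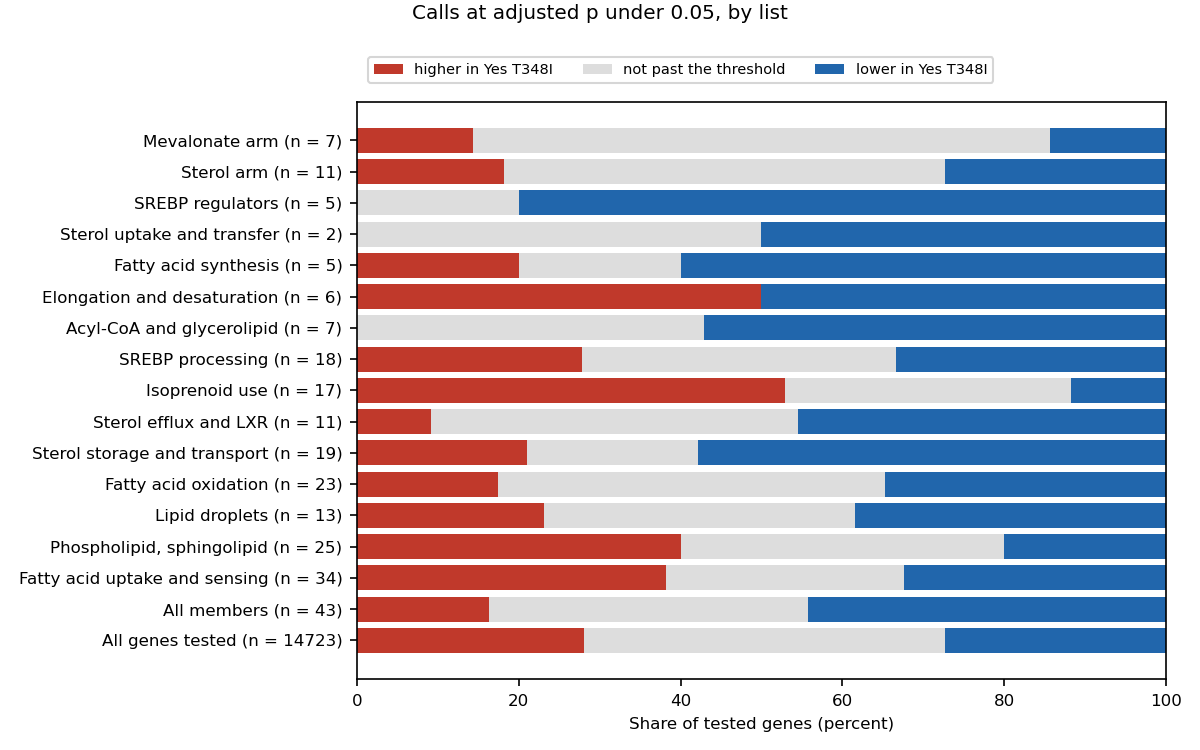
Share of tested genes (percent) called higher in Yes T348I, not past the threshold, or lower, for the 7 role groups, the 8 neighbouring lists, all members and all genes tested, with the number tested in brackets. The lower share is 44.2% over all members and 27.3% over all genes tested. The isoprenoid list has 9 of 17 genes higher, beside 28.0% of all genes tested, or 6 by upper quartile factors, by library size alone or with DESeq2.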

How the data were processed

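The authors deposited read counts for each gene in each library, not normalized, below 4 summary lines. Tools named in the submitters' processing notes are CASAVA 1.8.2, Trimmomatic 0.35, STAR 2.5.1b and GRCh38, without roles. No source used here names the annotation release. Per the labels' protocols the kit is stranded, and reverse-strand counts were taken, with forward counts at 6.13% to 6.59% of them. Ambiguous reads (3.11% to 3.15% of reads in genes, outside genes or ambiguous) and multimapping reads were not counted, which lowers genes with close copies.

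Members were matched by symbol through a table of gene names, and positions and exon lengths came from GENCODE release 29 (GRCh38). TPM was computed from the counts and these lengths. Genes passing filterByExpr (minimum count 10) were scaled by TMM and tested with edgeR 4.0.16 in R 4.3.3 (quasi-likelihood F-test, no covariate, Benjamini-Hochberg adjusted p threshold 0.05). The method was also run on simulated data in which far fewer genes changed than were called here. That run cannot check the scaling or the error rate where so many genes differ. SE is the standard error of the log2 fold change, Yes T348I over Yes WT. Alternatives are DESeq2 1.42.0, limma-voom 3.58.1, other scalings, no filter, unstranded counts, a replicate block and each library left out. Values per library are given for up to 5 members of each role group with the lowest adjusted p, all SREBP regulators and up to 3 members per group that did not pass, and up to 3 genes of each neighbouring list with the lowest adjusted p are named; 1 gene that this rule picks is not reported here. Members and lists were chosen with earlier results of these data known.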

Additional observations from a re-analysis of the deposited data

How the results depend on the processing

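Over 14 alternatives, the 43 members gave 602 log2 fold changes, of which 551 kept their side of the threshold, 35 lost the call and 16 gained one. The sign turned in 30 of the 602, all of 8 members that did not pass (ACACA, AGPAT2, CYP51A1, DGAT2, DHCR7, FDFT1, SC5D and SCAP), and in 0 of the called members. Of 26 called members, 19 kept their call under each of the 14, and the other 7 are ACLY, ELOVL6, FASN, INSIG2, LSS, MVD and SREBF2. With 1 library left out, 5 to 8 members were higher and 15 to 19 lower.

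Counts in these groups moved by over 1.5 times, and the cause was not tested. In the mevalonate arm, the number higher was 2 with DESeq2 size factors, 3 with no low-count filter, 2 with unstranded counts and 1 to 3 with 1 library left out. The number lower there was 2 by library size only, 3 by upper quartile factors, 0 with no low-count filter, 0 with DESeq2, 2 with unstranded counts and 0 to 1 with 1 library left out. SREBP regulators had 2 lower with no low-count filter, 2 with DESeq2 and 2 to 4 with 1 library left out. The rise in fatty acid synthesis (ACLY) went to 0 with upper quartile factors, library size only and the replicate block, and was 0 to 1 with 1 library left out. Isoprenoid use had 1 lower with no low-count filter, DESeq2, unstranded counts, the replicate block and each library left out. Fatty acid oxidation had 2 higher with upper quartile factors, library size only and DESeq2, and 2 to 5 with 1 library left out. With at least 1.2-fold, 1 of 43 members rose and 12 fell, beside 2397 rises and 2966 falls among all 14723 genes tested. The number of members with such a rise went to 0 with upper quartile factors or library size only.

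Log2 fold changes were also compared with those of the main fit, gene by gene over the genes tested there. The median difference was -0.037 when only library size was used, -0.040 under upper quartile factors and 0.026 without the low-count filter. Libraries of the same replicate number had deviation correlations of -0.028, 0.0014 and -0.019. With 3 libraries a group, these values cannot decide whether such libraries were handled together. With the replicate number as a block, 6 members were higher and 19 lower. Depth limits GPAM, with 0 to 3 counts a library, and ABCG1.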
